A study of Mus musculus with 12 samples.

Results

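Phototransduction is the cascade by which rods and cones turn light into an electrical signal. This report follows 33 genes of that cascade, picked by gene symbol from a list of cascade members; each of the 33 has a row among the 53090 gene rows of every library. Of these, 10 were classed as subunits or partners of rods, 11 as their counterparts in cones, and 12 as serving both cell types or broadly expressed. Gnb1, classed with rods, and Gnb3 and Slc24a2, classed with cones, are also used by other cells. The libraries hold RNA recovered from mouse retina by immunoprecipitating ribosomes through an HA tag. The mice were C57BL/6, the cells are labelled as retinal pericytes (the contractile cells on the outside of capillaries), and both age groups had received tamoxifen on postnatal days 1 and 2. One group was collected on postnatal day 3 (P3, 6 libraries) and the other on day 9 (P9, 6 libraries). Both groups share strain, tag and tamoxifen. The P9 retinas were collected longer after tamoxifen, so that interval cannot be told apart from age. The sources used here do not give the transgenes, the promoter that drives the tag or the number of animals per library. RNA from before the immunoprecipitation was not analysed here.

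In the dark, a cGMP-gated cation channel holds the photoreceptor depolarised. Light activates an opsin, the opsin activates the G protein transducin, and transducin releases the inhibitory gamma subunit from a cGMP phosphodiesterase, which closes the channel by removing cGMP. Arrestin, a receptor kinase, an RGS protein and calcium-regulated guanylate cyclases then restore the dark state. Rods and cones run the same cascade with separate genes for most steps. In the mouse retina cones are born before birth and most rods around birth, and outer segments, where the cascade sits, grow in the following weeks.

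At P9, transcripts of the rod cascade were far higher than at P3, whereas those of the cone cascade ranged from higher to lower. Values are CPM, read counts of a gene scaled to a common library size with TMM factors, and a gene was called at an adjusted p under 0.05 in edgeR's quasi-likelihood test over 18638 genes. Of the 10 rod members, 10 rose, with a median log2 fold change (P9 over P3) of 3.46. Of the 11 cone members, 7 rose, 1 fell and 3 did not pass, with a median of 0.81. The 12 shared members rose in 12 cases, with a median of 2.61. Over all genes tested, 26.1% rose and 25.6% fell (51.8% either way), and the median log2 fold change was -0.0018. A rise of at least 8-fold was called for 7 rod, 1 cone and 5 shared members, against 1.0% of all genes tested. In 28 members every P9 library lay above every P3 library and in 1 every P9 library lay below, against 16.3% and 15.4% of all genes tested. All 33 members passed the filter on low counts. For 32 of them every P3 library held at least 10 counts; the exception was Opn1mw, which passed through its P9 libraries. Without it, 28 of 32 members rose and 1 fell, the cone median was 0.56, and 0 of 10 cone members rose at least 8-fold.

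**Figure D1:**
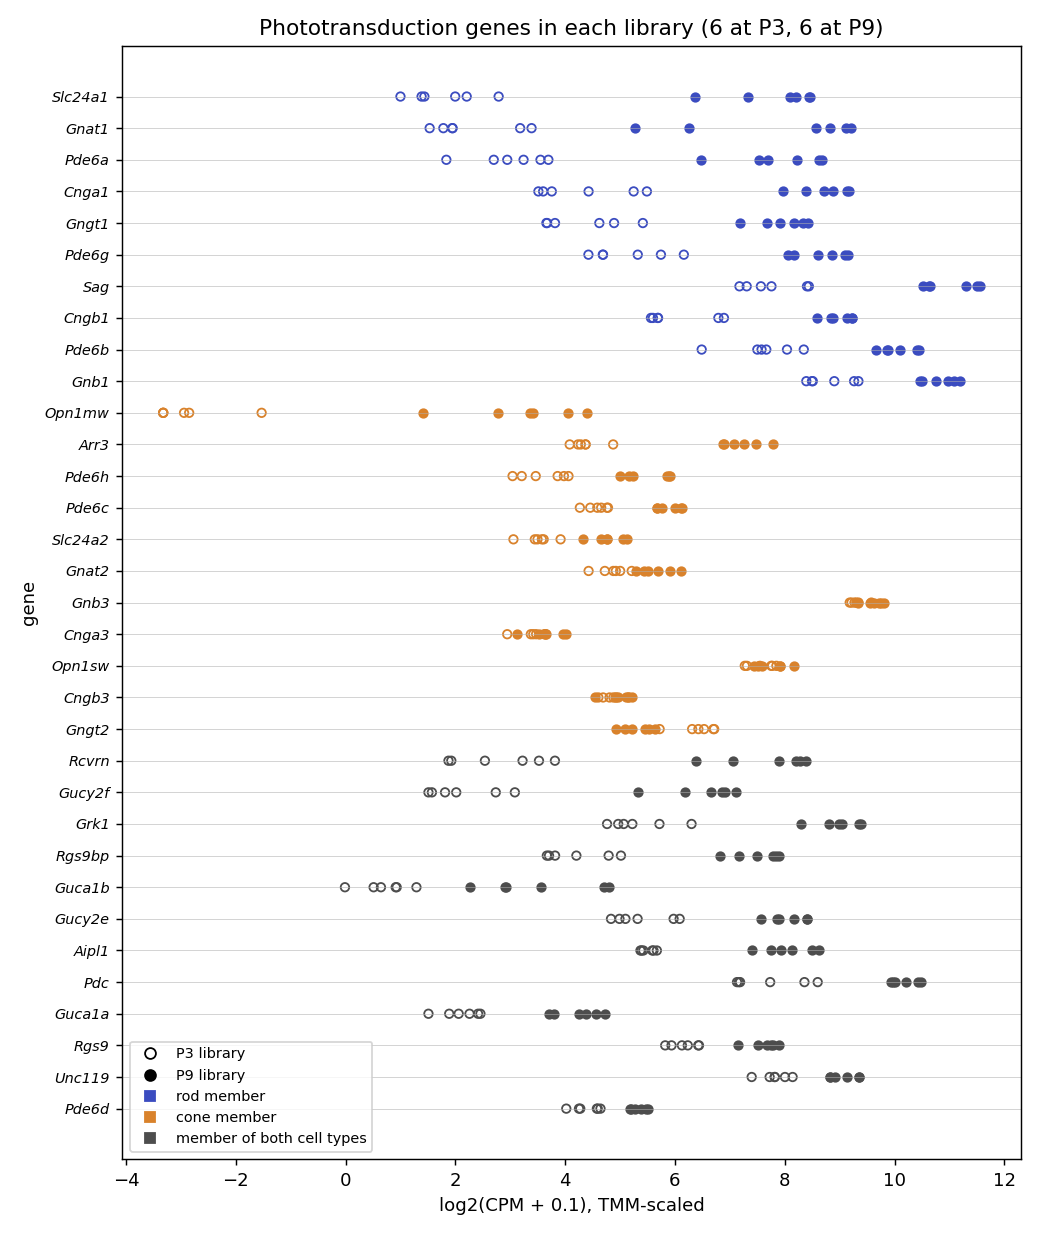
Level of each of the 33 genes in each library on the horizontal axis, as log2 of TMM-scaled CPM plus 0.1, with open circles for the 6 P3 libraries and filled circles for the 6 P9 libraries. The rod genes (blue, top) lie in separate ranges at the 2 ages, while Cnga3, Opn1sw, Cngb3 and Gnb3 among the cone genes (orange) overlap; levels of different genes are not comparable here because transcript lengths were not used.

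The libraries held 26839599 to 37776172 counts, so 1 CPM stands for 25.8 to 38.5 counts. Markers of the labelled cell type were present at both ages. Of 10 pericyte markers 10 rose, against 26.1% of all genes tested. None of the 10 was at 0 in any library, and their summed level was 188 to 1160 CPM at P3 and 2690 to 6081 CPM at P9. Pdgfrb, the receptor that recruits pericytes, rose 6.00-fold, Rgs5, a regulator of G protein signalling, 6.83-fold and Cspg4, the NG2 proteoglycan, 4.36-fold (edgeR adjusted p = 4.92e-06, 7.93e-05 and 7.41e-05). The phototransduction genes together took 0.217% to 0.369% of counts at P3 and 0.902% to 1.61% at P9. Transcripts of photoreceptors were part of the recovered RNA at both ages, and how they came to be in it was not tested. More photoreceptor cells and more RNA per cell cannot be told apart in these bulk samples. Nothing in the labels ties a library to its own animal; the p-values therefore describe only how far these libraries scatter, which may be technical.

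The RefSeq start-site windows (250 bases before to 50 after a start, build GRCm38.p6) were searched for the core site of CRX, the homeobox factor of photoreceptors. The letters TAATCC or their reverse complement GGATTA were found for 10 of the 23 members that have a window, against 8.14% of all 27025 genes with one (7.06% of windows). By class they were found for 4 of 7 rod, 1 of 7 cone and 5 of 9 shared members. The core site of NRL, the rod leucine zipper factor (TGCTGAC or GTCAGCA, searched on both strands), was found for 2 of 23, Pde6b and Opn1sw, against 5.28% of genes. A match of letters is a description and not a binding site. Crx itself ranged from 710.5 to 1126 CPM at P3 and from 1215 to 1586 CPM at P9 and rose 1.56-fold (adjusted p = 0.00074, edgeR). Whether CRX had a part in the changes of the members was not tested. Members without a window are Gnat1, Gnb3, Gngt2, Pde6a, Pde6c, Pde6g, Cngb3, Rcvrn, Guca1b and Rgs9bp.

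Printed here are the 250 bases before the start of 3 rod members, 1 shared member and the cone member that carries the core letters, which are in capitals. Gngt1 lies at chr6:3993758-3994007 on the plus strand, with the first capital 44 bases before the start. Cngb1 lies at chr8:95306586-95306835 on the minus strand, with capitals 58 and 25 bases before it. Sag lies at chr1:87803430-87803679 on the plus strand (87 bases), Gucy2f at chrX:142196937-142197186 on the minus strand (84 and 59 bases) and Gnat2 at chr3:108092816-108093065 on the plus strand (19 bases). Each is read 5′ to 3′ on the strand of its gene.
Gngt1: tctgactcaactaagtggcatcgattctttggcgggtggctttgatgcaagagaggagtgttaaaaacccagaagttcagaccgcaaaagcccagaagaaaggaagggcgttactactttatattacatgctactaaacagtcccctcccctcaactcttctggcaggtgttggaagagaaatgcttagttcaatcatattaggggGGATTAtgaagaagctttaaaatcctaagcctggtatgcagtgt
Cngb1: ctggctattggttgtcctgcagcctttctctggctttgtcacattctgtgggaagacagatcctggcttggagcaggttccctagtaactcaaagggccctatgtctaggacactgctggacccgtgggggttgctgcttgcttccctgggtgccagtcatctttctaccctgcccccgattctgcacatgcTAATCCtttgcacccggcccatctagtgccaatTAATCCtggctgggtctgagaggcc
Sag: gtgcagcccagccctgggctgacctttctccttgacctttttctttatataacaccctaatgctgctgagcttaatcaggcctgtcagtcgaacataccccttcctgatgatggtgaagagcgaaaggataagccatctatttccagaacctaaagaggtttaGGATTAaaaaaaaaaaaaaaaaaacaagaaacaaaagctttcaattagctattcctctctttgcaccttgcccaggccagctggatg
Gucy2f: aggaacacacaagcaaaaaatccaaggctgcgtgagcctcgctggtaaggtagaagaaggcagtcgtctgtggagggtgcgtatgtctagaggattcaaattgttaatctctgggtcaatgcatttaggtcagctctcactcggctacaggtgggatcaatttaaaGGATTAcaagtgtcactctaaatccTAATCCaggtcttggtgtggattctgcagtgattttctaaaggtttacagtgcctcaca
Gnat2: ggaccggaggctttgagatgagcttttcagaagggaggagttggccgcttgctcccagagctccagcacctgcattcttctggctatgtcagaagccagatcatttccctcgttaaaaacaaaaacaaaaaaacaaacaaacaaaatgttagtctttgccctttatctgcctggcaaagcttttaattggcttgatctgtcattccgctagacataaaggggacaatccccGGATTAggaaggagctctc

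The opsins, the light receptors, moved unequally. Opn1sw (ENSMUSG00000058831.13, chr6:29376671-29380513 in mm10), the short-wavelength opsin of mouse cones, was already abundant at P3. Its lowest, median and highest values were 154, 201 and 230.2 CPM at P3 and 174, 216 and 287 CPM at P9. The ages overlapped, and the difference did not pass (log2 fold change 0.18 ± 0.14, SE, n = 6 per age; edgeR adjusted p = 0.299). Opn1mw (ENSMUSG00000031394.11, chrX:74127466-74150756), the medium-wavelength opsin, was near 0 at P3. Its counts there summed to 10 over 6 libraries, with 0 counts in 3 of them and 8 in replicate 5. At P9 it reached 2.57, 10.3 and 21.0 CPM (lowest, median, highest). Every P9 library lay above every P3 library. The ratio of summed counts per effective library size was 202, with a 95% interval of 109 to 421 that covers counting error only. Without P3 replicate 5, which left 2 counts at P3, the ratio was 830.1 (229.5 to 6858).

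Transducin, the G protein that relays the opsin signal, rose in its rod subunits, while those of cones rose less or fell. Gnat1 (ENSMUSG00000034837.12, chr9:107674437-107679634), the rod alpha subunit, had 2.79, 3.75 and 10.4 CPM at P3 (lowest, median, highest) and 38.5, 417 and 592 CPM at P9. P9 replicates 3 and 4, at 38.5 and 76.2 CPM, stood well below the other P9 libraries but still above all of P3. The rise was 63.2-fold (log2 fold change 5.98 ± 0.68, SE, n = 6 per age; edgeR adjusted p = 4.61e-06). Gnat2, the cone alpha subunit, went from a range of 21.4 to 37.0 CPM to one of 38.9 to 68.9 CPM, which do not overlap, and rose 1.75-fold (adjusted p = 0.000368, edgeR). Gnb1, the beta subunit used by rods and by many other cells, rose 3.96-fold, from a median of 421 to 1867 CPM. Gnb3, the beta subunit of cones, had medians of 625 and 815 CPM in overlapping ranges. It was called at 1.25-fold (adjusted p = 0.00917, edgeR).

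The gamma subunits moved in opposite directions. Gngt1, the rod gamma subunit, had 12.5, 19.3 and 42.6 CPM at P3 (lowest, median, highest) and 145, 264 and 343 CPM at P9, a rise of 11.3-fold (adjusted p = 7.00e-07, edgeR). Gngt2 (ENSMUSG00000038811.13, chr11:95841772-95845734), the cone gamma subunit, was the member that fell. Its values were 52.6, 89.1 and 105 CPM at P3 and 30.5, 40.5 and 49.6 CPM at P9, with each P9 library below each P3 library. It was 2.15-fold lower at P9 (log2 fold change -1.10 ± 0.16, SE, n = 6 per age; edgeR adjusted p = 4.38e-05). Its annotated span shares 705 bases with Abi3, and 11 of its 12 deposited values were not whole, so reads were shared by a model. Abi3 itself stayed between 4.31 and 7.39 CPM in the 12 libraries and did not pass (adjusted p = 0.416, edgeR).

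Gnb3 is also used by ON bipolar cells, the interneurons that receive photoreceptor input. In the same libraries the bipolar list, which does not hold Gnb3, rose in 9 of 10 genes (Lrit3 did not pass), against 26.1% of all genes tested. Its summed level went from 120 to 170 CPM at P3 (lowest to highest) to 1333 to 2333 CPM at P9. By adjusted p the list was led by Gpr179 (15.7-fold), Grm6, the glutamate receptor of ON bipolar cells (351-fold), and Vsx1. Its markers Vsx1 and Gng13 were at 0 in at least 1 P3 library. The part of bipolar transcripts in the Gnb3 values was not tested.

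The phosphodiesterase PDE6, which hydrolyses cGMP, rose in 5 of 5 subunit genes, against 26.1% of all genes tested. Pde6a, the rod alpha subunit, had 3.47, 8.48 and 12.8 CPM at P3 (lowest, median, highest) and 89.3, 254 and 411 CPM at P9, a rise of 30.9-fold. Pde6b, the rod beta subunit that pairs with it, had 89.6, 197 and 325 CPM at P3 and 814, 1018 and 1393 CPM at P9, a rise of 5.22-fold. The products of these genes form one heterodimer in rods, and their fold changes were unequal (log2 fold changes 4.95 ± 0.40 and 2.38 ± 0.25, SE, n = 6 per age; this difference was not tested). Pde6c, the catalytic subunit of cones, rose 2.48-fold, from a range of 19.2 to 27.4 CPM to one of 50.6 to 70.2 CPM. Among the inhibitory gamma subunits, Pde6g of rods rose 10.6-fold from a median of 32.8 to 427 CPM, and Pde6h of cones 3.77-fold from 12.7 to 47.8 CPM. In all 5 every P9 library lay above every P3 library, against 16.3% of all genes tested. The largest adjusted p-value of the 5 in edgeR was that of Pde6h, 4.20e-06. The deposited values of Pde6h were not whole in 12 of 12 libraries, so its reads were shared by a model.

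The cGMP-gated channel changed in its rod subunits, while neither cone subunit passed the test. Cnga1, the rod channel's A subunit, had 11.3, 17.4 and 44.8 CPM at P3 (lowest, median, highest) and 251, 445 and 575 CPM at P9, a rise of 18.5-fold (adjusted p = 4.89e-07, edgeR). Cngb1, its B subunit, rose 7.18-fold, from a median of 51.5 to 517 CPM. P3 replicates 4 and 5 were the highest of their age for both genes. Cnga3, the A subunit of cones, had 7.60, 10.8 and 12.4 CPM at P3 and 8.64, 12.4 and 16.1 CPM at P9 (log2 fold change 0.25 ± 0.16, SE, n = 6 per age; edgeR adjusted p = 0.197). Cngb3, the cone B subunit, had 24.2, 28.6 and 35.8 CPM at P3 and 23.1, 30.6 and 36.9 CPM at P9 (log2 fold change 0.06 ± 0.12, SE; edgeR adjusted p = 0.727). For both cone genes the ages overlapped.

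The sodium-calcium-potassium exchanger extrudes the calcium that enters through that channel. Slc24a1 (ENSMUSG00000034452.7, chr9:64922861-64951620), the rod exchanger, had 1.90, 3.25 and 6.81 CPM at P3 (lowest, median, highest) and 82.6, 283 and 350.0 CPM at P9. The rise was 67.2-fold (log2 fold change 6.07 ± 0.41, SE, n = 6 per age; edgeR adjusted p = 5.08e-08), and P9 replicate 3 was again the lowest of its age. Slc24a2, the exchanger of cones and of other neurons, rose 2.41-fold from a median of 11.5 to 27 CPM, and its ages did not overlap.

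**Figure D2:**
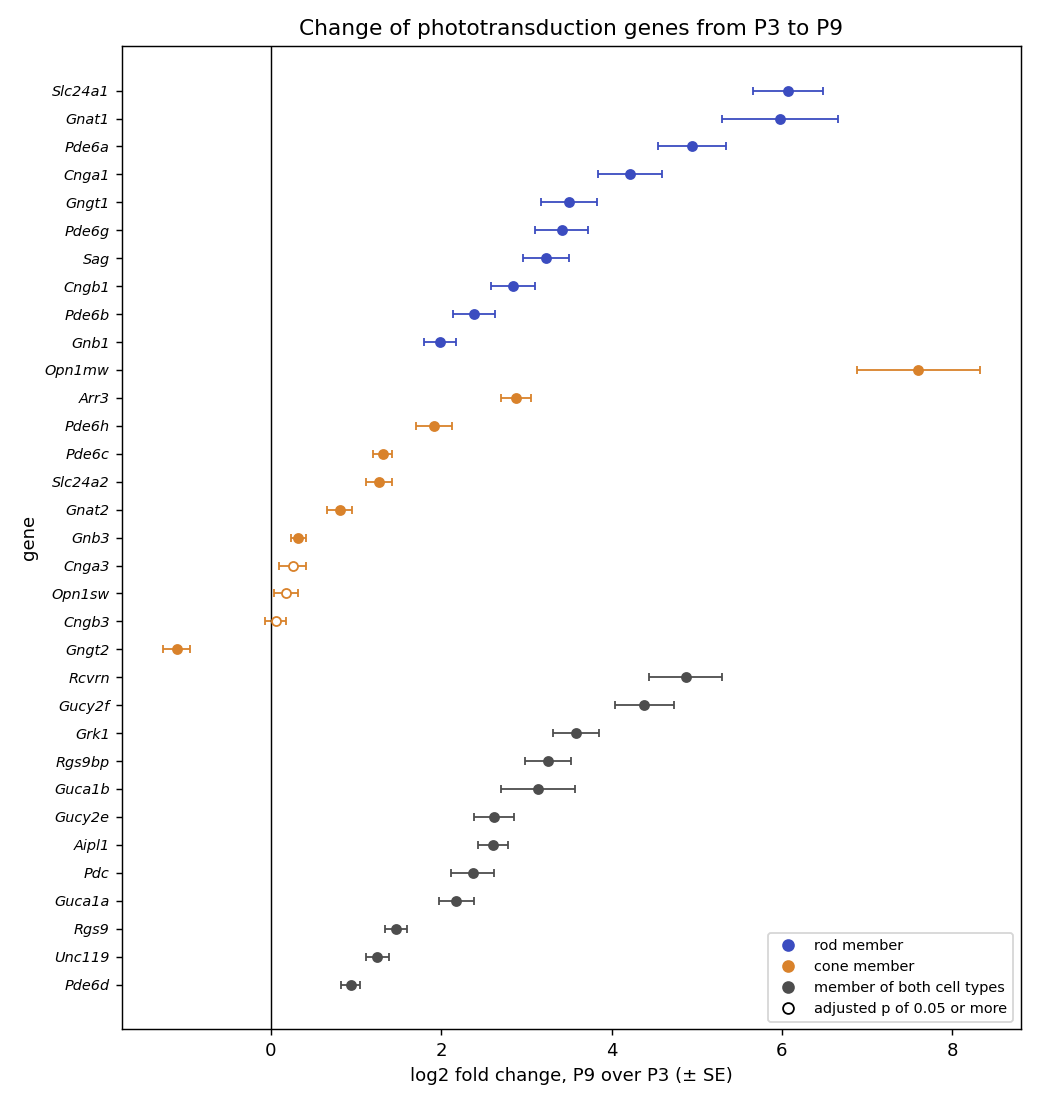
Log2 fold change of each gene from P3 to P9 (points) with its standard error (bars) from edgeR, 6 libraries per age; filled points passed an adjusted p of 0.05. Rod genes (blue) run from Gnb1 at 1.99 to Slc24a1 at 6.07 and cone genes (orange) from Gngt2 at -1.10 to Opn1mw at 7.60, a fitted value that rests on 10 counts at P3.

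Shutoff genes rose in 6 of 6 cases, the cone arrestin among them, against 26.1% of all genes tested. Sag, the arrestin of rods that is also found in mouse cones, had 144, 203 and 347 CPM at P3 (lowest, median, highest) and 1468, 2065 and 2999.8 CPM at P9, a rise of 9.39-fold (adjusted p = 3.03e-07, edgeR). Arr3, cone arrestin, had 16.8, 20.0 and 29.2 CPM at P3 and 118, 144 and 221 CPM at P9, a rise of 7.35-fold (adjusted p = 2.50e-08, edgeR). Among cone members only Opn1mw had a larger fold change. Grk1, the kinase that phosphorylates active opsin, rose 12-fold from a median of 35.3 to 517 CPM. Rcvrn, which encodes recoverin, the calcium sensor that restrains that kinase, rose 29.2-fold from 7.47 to 267 CPM. The span of Rcvrn lies within that of Glp2r, which itself went from a median of 4.03 to 38.9 CPM; whether counting used the strand is not given, so reads of the pair are less certain.

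Transducin is switched off by a complex of the RGS protein, its anchor and a G protein beta subunit. Rgs9 rose 2.77-fold, from a range of 56.5 to 86.6 CPM to one of 142 to 238 CPM. Rgs9bp, which encodes the membrane anchor of RGS9, rose 9.53-fold, from 12.6 to 32.3 CPM to 113 to 238 CPM. Gnb5, the beta subunit of the complex and not one of the 33 genes, rose 4.69-fold (adjusted p = 6.19e-08, edgeR). For each of the 3 every P9 library lay above every P3 library, as in 16.3% of all genes tested.

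Guanylate cyclases, which resynthesise cGMP, and their calcium-binding activators rose in 4 of 4 cases without overlap of the ages. Of all genes tested, 26.1% rose, and in 16.3% every P9 library lay above every P3 library. Gucy2e rose 6.14-fold from a median of 37.0 to 264 CPM, and Gucy2f 20.9-fold from 3.68 to 108 CPM. Guca1a rose 4.53-fold from 4.38 to 19.9 CPM, and Guca1b 8.77-fold from 1.62 to 9.53 CPM. Guca1b was split at P9: replicates 5 and 6 held 25.9 and 27.6 CPM and the other 4 libraries 4.72 to 11.6 CPM. Genes for assembly and trafficking of the cascade rose in 4 of 4 cases, against the same 26.1%. Pdc, which encodes phosducin, a binder of transducin beta-gamma, rose 5.16-fold from a median of 179 to 1111 CPM, and Aipl1, a chaperone of PDE6, 6.10-fold from 45.4 to 263 CPM. Unc119, which carries lipid-modified transducin alpha, rose 2.38-fold, and Pde6d, a broadly expressed carrier of prenylated proteins, 1.91-fold from 21.5 to 40.2 CPM.

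Rod and cone genes were then compared directly. For 9 steps with a gene for each cell type, the log2 CPM of the cone gene was subtracted from that of the rod gene within each library, and this ratio was compared between the ages with a two-sided exact permutation test over the 924 ways to split the 12 libraries. The ratio is free of library scaling apart from the prior count. Its level depends on transcript length, so only its change is read. Gnb1, Gnb3 and Slc24a2 are also used by other cells and Sag is also found in mouse cones. Their pairs therefore do not fully separate rods from cones. In 8 of 9 pairs the ratio was higher at P9 without overlap, at the smallest p that 6 against 6 can give (exact permutation p = 0.00216, adjusted p = 0.00244 over the 9 pairs). Among single genes tested, every P9 library lay above every P3 library in 16.3% and below in 15.4%. No such share was computed for other gene pairs. The 9 ratios come from the same 12 libraries, where rod members moved together, so the 8 results are not independent of each other. The shift was 4.79 ± 0.72 (SE, n = 6 per age) on the log2 scale for Gnat1/Gnat2, 4.77 ± 0.39 for Slc24a1/Slc24a2 and 4.69 ± 0.32 for Gngt1/Gngt2. It was 4.13 ± 0.31 for Cnga1/Cnga3, 3.58 ± 0.45 for Pde6a/Pde6c and 2.89 ± 0.21 for Cngb1/Cngb3. With Pde6b in place of Pde6a as the rod partner of Pde6c, the shift was 1.15 and still passed (exact permutation adjusted p = 0.00244). With the pairs as listed, the smallest of the 8 were Gnb1/Gnb3 at 1.69 ± 0.24 and Pde6g/Pde6h at 1.58 ± 0.18.

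The arrestin pair was the exception. The Sag/Arr3 ratio ran from 2.94 to 4.07 at P3 and from 3.45 to 4.25 at P9, so the ages overlapped, and its shift was 0.39 ± 0.21 (SE, n = 6 per age; exact permutation p = 0.0909, adjusted p = 0.0909). P3 replicate 5 held the highest ratio of its age. Without it the shift was 0.52 and passed (exact permutation adjusted p = 0.0195), and over the alternatives tried the adjusted p ran from 0.0143 to 0.352. Whether the arrestin shift differs from those of the other pairs was not tested.

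**Figure D3:**
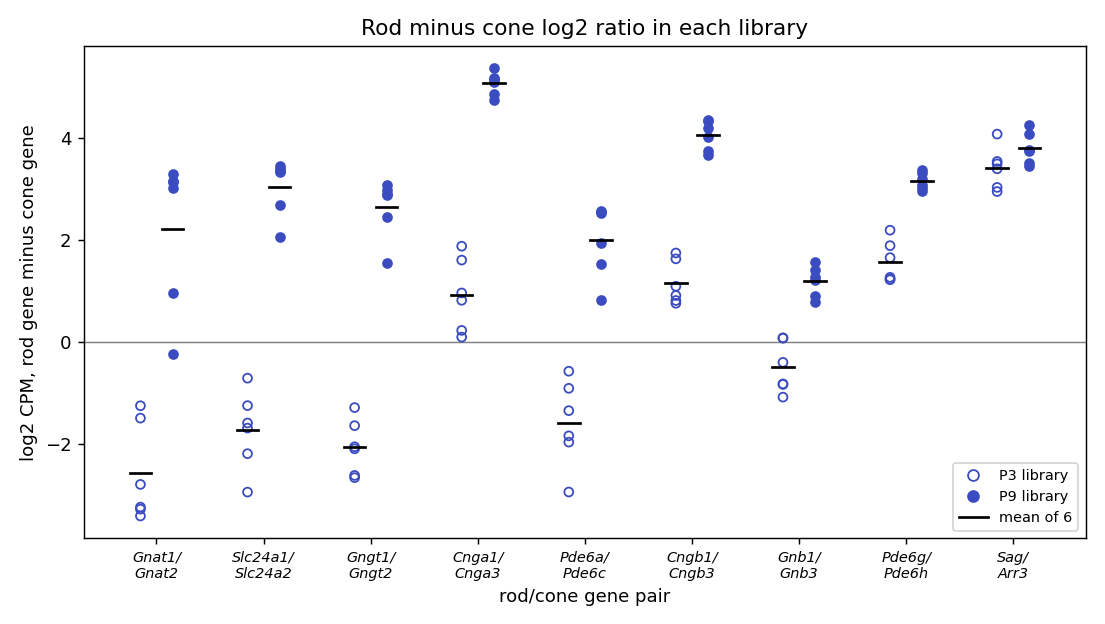
Log2 CPM of the rod gene minus that of its cone counterpart (vertical axis) for 9 pairs, with open circles for P3 libraries, filled circles for P9 libraries and bars for the mean of 6. In 8 pairs the ages are apart, by 1.58 to 4.79 on the log2 scale, and the Sag/Arr3 circles overlap; heights of different pairs are not comparable because transcript lengths differ.

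Libraries of one age differed among themselves in the same order for most members. At P3, replicates 4 and 5 stood above the mean of their age in log2 CPM for 29 and 27 of the 33 genes, while replicates 1, 2 and 3 did so for 5, 8 and 5. For the 10 rod members this was 10 and 10 against 0, 0 and 0, and the median deviation was 0.80 and 0.68 in replicates 4 and 5 and -0.71 in replicate 3. As a set, the 11 cone members showed little of this order, with medians between -0.09 and 0.06 over the P3 libraries. In replicates 4 and 5, 7 and 6 of the 11 lay above the mean. Single cone genes went either way there, with Cngb3 at 0.27 and 0.28 and Opn1sw at -0.27 and -0.31. At P9, replicates 1, 5 and 6 lay above the mean for 28, 31 and 32 of 33 genes and replicates 3 and 4 for 1 and 5. The rod median there was -0.67 in replicate 3 and 0.44 in replicate 6. Cone members followed this order at P9 at its high end, with medians of 0.26 and 0.28 in replicates 5 and 6 (9 and 10 of 11 above the mean). They were lowest in replicates 2 and 3, with medians of -0.22 and -0.24 (1 of 11 each), while replicate 4 had -0.13 (4 of 11). P3 replicates 4 and 5 and P9 replicates 5 and 6 also had the highest correlation of their age over all genes (r = 0.970 and 0.974), and the labels do not say whether they share an origin.

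The pericyte markers did not follow one rule across these libraries. P3 replicates 4 and 5, highest in rod genes, also had the highest pericyte sums of their age, 1024 and 1160 CPM against 188 to 504 CPM. P9 replicate 6, highest in phototransduction genes as a share of counts, had the lowest pericyte sum of its age, 2690 CPM, and P9 replicate 2 the highest, 6081 CPM. The retinal progenitor markers fell in 7 of 8 genes, against 25.6% of all genes tested. They summed to 1270 to 1758 CPM at P3 and 816 to 1017 CPM at P9, with P9 replicate 3 the highest of its age. The part of these markers in the order of the libraries was not tested. Leaving out P3 replicates 4 and 5 together, or P9 replicates 5 and 6 together, left 29 members higher and 1 lower at P9. Without P3 replicates 4 and 5 the log2 fold change was 6.68 for Gnat1 and 4.91 for Cnga1, and the Gnat1/Gnat2 shift was 5.40. Without P9 replicates 5 and 6 the log2 fold change of Guca1b was 2.28.

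**Figure D4:**
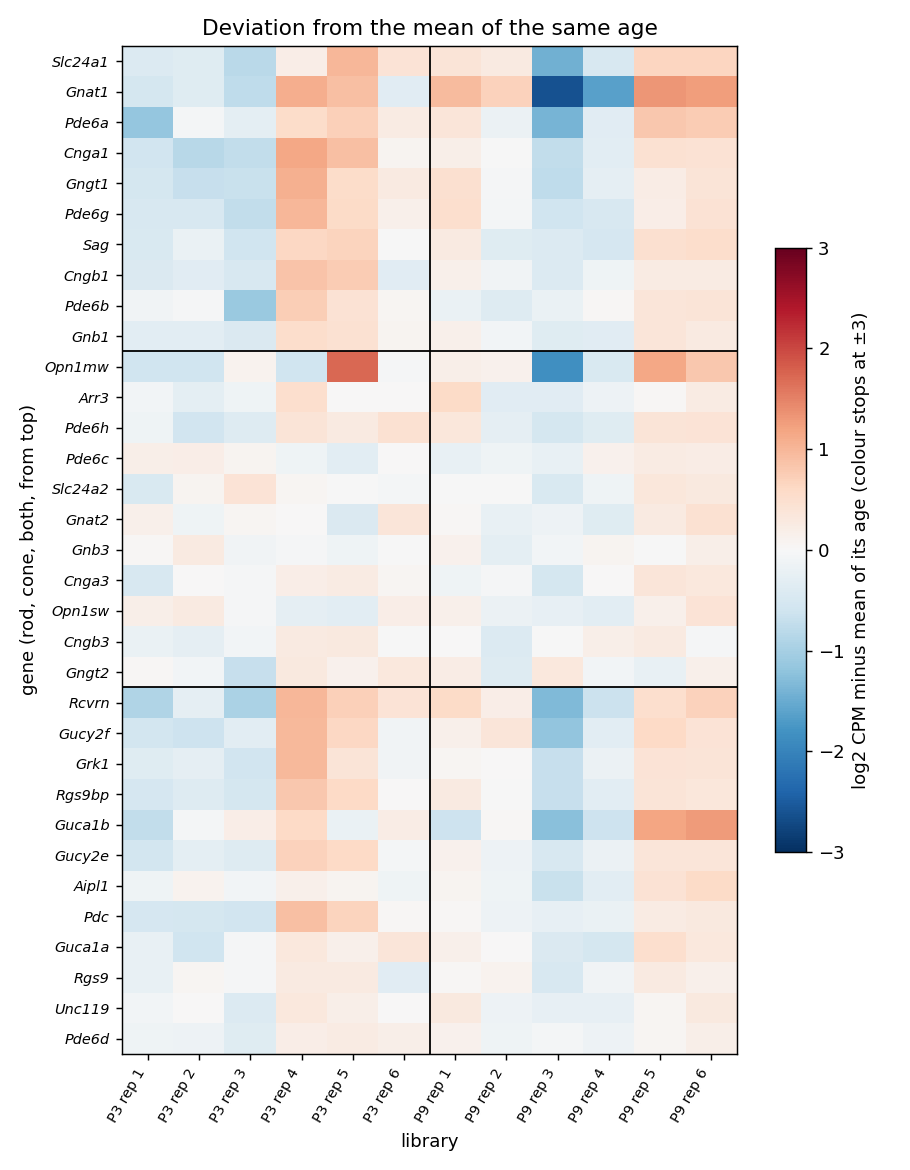
Log2 CPM of each gene in each library minus the mean of the 6 libraries of the same age (colour, red above and blue below, with the scale stopping at 3 either way); rows hold 10 rod, 11 cone and 12 shared genes from top to bottom. P3 replicates 4 and 5 and P9 replicates 5 and 6 are red for rod and shared genes, P9 replicate 3 is blue, and the cone block is paler at P3 apart from Opn1mw.

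Other genes of the same cells gave the following counts. Over all genes tested, 26.1% rose and 25.6% fell. Of 24 genes that support or traffic the cascade, 18 rose, 1 fell and 5 did not pass (median log2 fold change 0.97). Among those with the smallest adjusted p were Gnb5 and Ppef2, a protein phosphatase of photoreceptors that rose 2.06-fold (adjusted p = 1.30e-07, edgeR). The gene that fell was Unc119b, the paralogue of Unc119, which was 1.58-fold lower at P9 (adjusted p = 1.68e-06, edgeR).

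Of 12 genes of rod or photoreceptor identity and outer segments, 11 rose and 1 fell (median 1.63), and their summed level went from 3234 to 6135 CPM to 8696 to 11878 CPM. Cabp4, a calcium-binding protein of the photoreceptor synapse, rose 19.5-fold (adjusted p = 5.90e-08, edgeR), Prph2, the rim protein peripherin 2, 5.91-fold (adjusted p = 1.18e-06) and Nrl, which directs the rod fate, 2.31-fold (adjusted p = 0.000101). Prdm1, a factor of newborn photoreceptors, was 2.67-fold lower at P9 (adjusted p = 8.42e-08, edgeR). Of 4 genes of cone identity, 1 rose and 3 fell, without overlap of the ages, and their sum went from 377 to 486 CPM to 153 to 208 CPM. Most of that sum at P3 was Ccdc136, at 285 to 387 CPM, against 67.7 to 100 CPM at P9. The fall of the sum therefore mainly follows this gene. Every P9 library lay above every P3 library in 16.3% of all genes tested and below in 15.4%. Ccdc136 was 3.67-fold lower (adjusted p = 9.09e-09, edgeR) and Rxrg, a retinoid X receptor of developing cones, 2.45-fold lower (adjusted p = 3.69e-06), while Thrb, the thyroid hormone receptor that directs medium-wavelength opsin expression, rose 2.17-fold (adjusted p = 4.85e-06).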

How the data were processed

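The authors deposited 1 table per library with RSEM expected counts per gene, unscaled; 15.9% of values are not whole. The submitters' processing notes name mm10 and the tools STAR, RSEM, limma, Trim Galore and FastQC; the sources used here give no versions, roles or annotation. Of the 33 members, 28 had whole values in all 12 libraries. Libraries were made with a stranded kit, per the labels' protocols.

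Groups follow the labelled age. Replicates were numbered in deposition order and pair nothing; the titles and file names of P9 replicates 5 and 6 are crossed, which moves no library between ages. Expected counts were rounded. filterByExpr kept 18638 of 53090 genes, TMM set the scaling, and edgeR 4.0.16 (R 4.3.3; quasi-likelihood, Benjamini-Hochberg over all tested genes, threshold 0.05) compared the ages. Pair ratios used a prior count of 2. The standard error of a fold change is its size over the square root of F; that of a pair shift comes from the SDs of both ages. Procedures were tested on simulated data. RefSeq coordinates and start-site windows are of GRCm38.p6, the assembly that mm10 names; 33 of 33 symbols matched. Interval limits are exact (Clopper-Pearson, converted to a ratio) at 95%.

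The members, lists and tests were chosen with earlier results of these data known. Named were the members by role, the 3 called genes of the accessory, rod identity, cone identity and bipolar lists with the smallest adjusted p and up to 2 that moved against their list, except 1 gene that is not reported here, and the pericyte markers Pdgfrb, Rgs5 and Cspg4; Crx, Nrl, Gng13, Lrit3 and the genes overlapping members were named beyond it, after their values were seen. Alternatives were DESeq2 1.42.0, limma-voom (limma 3.58.1), other scalings, filters and prior counts, and libraries left out.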

Additional observations from a re-analysis of the deposited data

Results flagged for a closer look

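Among 84 sets of 6 libraries (33 genes and 9 pair ratios at 2 ages), 3 held a library far from the other 5 by Dixon's criterion (gap to the nearest library over the range), which chance gives in about 5% of sets. Opn1mw stood at 0.246 CPM in P3 replicate 5, where 8 of the 10 P3 counts lie. Gnb3 stood at 764 CPM in P3 replicate 2, against 581 to 649 CPM in the other P3 libraries. Arr3 stood at 29.2 CPM in P3 replicate 4, 1 of the 2 libraries highest in rod genes at that age.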

How the results depend on the processing

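The fit over all genes was repeated under 21 other settings and the pair ratios under 18. All 693 recomputed fold changes of single members kept their direction and their side of the threshold. Of 406 recomputed counts and pair shifts, 404 kept theirs (counts within 1.5 times). The exceptions both concern Sag/Arr3, which did not pass with 12 libraries: without P3 replicates 4 and 5 together its shift was 0.59 and passed (exact permutation adjusted p = 0.0143), and with single libraries left out it ran from 0.30 to 0.52, passing without P3 replicate 5 (0.52, adjusted p = 0.0195). The cause was not tested. The 29 rises and 1 fall among members were found under each of the 21 settings, while the counts over all genes ran from 4099 to 5113 higher and 4022 to 5062 lower. Among the members depth limits only Opn1mw, with 10 counts at P3. The bipolar markers Gng13 and Vsx1 were also low there, with 51 and 65 counts summed over the P3 libraries. The labels pair no P3 library with a P9 library, so the ages were compared without pairing.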
